A study of Homo sapiens with 4 samples.

Results

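The protocadherin beta (PCDHB) genes form a cluster of neighbouring genes on chromosome 5 that are each carried on a single exon. The region described here was hg19 chromosome 5, 140425001 to 140630000, which is 205 kb long, and its members were the CpG cytosines with at least 10 reads in every library. There were 869 such cytosines, among 411226 in the whole data set and among 3507 listed in the region in at least 1 library. They were chosen on read coverage and position; their methylation entered only in that a cytosine without a methylated read is not listed in these data.

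The measure was the share of methylated reads at each cytosine, from bisulfite sequencing after capture, in H9, an established line of human embryonic stem cells. The 4 libraries were naive B3GALT5-/- (KO) cells in 2iLAF medium, naive wild-type (WT) cells in 5iLAF medium, primed KO cells in basal medium and primed WT cells, also in basal medium. B3GALT5 encodes a galactosyltransferase that acts on glycosphingolipids. Primed cells resemble the epiblast after implantation, and naive cells an earlier stage whose genome carries less methylation. Each group held 1 library, so no difference has a replicate check, genotype and library cannot be told apart in the primed state, and in the naive state genotype and medium differed together.

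Protocadherins are cadherin-like adhesion proteins of the cell surface, and the clustered ones give neurons differing surface identities because each neuron transcribes its own subset of the isoforms. Each PCDHB gene has its own promoter, and most of these promoters hold a conserved sequence element, with a CGCT core, that the insulator protein CTCF can bind when its CpG is unmethylated. In cells outside the nervous system the clustered protocadherin genes are mostly silent.

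RefSeq (GRCh38.p14) lists 19 PCDHB genes, of which 3 are pseudogenes, and gives promoter sequences for 14 of them. The positions of the CpGs in these sequences were matched to the listed cytosines to find each gene on the hg19 coordinates of the files. A match with at least 6 listed CpGs, no listed cytosine elsewhere in the stretch and a poorer next best place was found for 8 genes, namely PCDHB4, PCDHB5, PCDHB7, PCDHB8, PCDHB16, PCDHB13, PCDHB14 and PCDHB15. With a minimum of 3 CpGs, chosen after seeing the data, PCDHB1, PCDHB3, PCDHB9, PCDHB10 and PCDHB12 were placed as well. PCDHB2 was not placed. The 13 placed genes stood in the RefSeq order, all on the plus strand. For PCDHB4 all 12 CpGs of the sequence were listed and for PCDHB8 and PCDHB16 all 9, against at most 3 at the next best place.

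The stretch around the conserved box is shown for each gene that has it, because the levels at and around this box are described below. The capitals mark GTGGCGCT, which contains the CGCT core, and each line reads 5′ to 3′ on the plus strand.
PCDHB2: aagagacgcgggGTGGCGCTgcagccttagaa
PCDHB3: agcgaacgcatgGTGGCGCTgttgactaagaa
PCDHB4: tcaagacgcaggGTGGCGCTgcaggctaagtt
PCDHB5: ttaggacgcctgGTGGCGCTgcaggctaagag
PCDHB7: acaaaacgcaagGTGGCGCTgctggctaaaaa
PCDHB8: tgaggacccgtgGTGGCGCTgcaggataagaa
PCDHB16: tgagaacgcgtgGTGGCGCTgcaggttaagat
PCDHB9: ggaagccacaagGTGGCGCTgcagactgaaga
PCDHB10: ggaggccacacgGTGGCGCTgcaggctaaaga
PCDHB12: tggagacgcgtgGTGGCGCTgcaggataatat
PCDHB13: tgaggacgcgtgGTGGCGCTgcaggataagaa
PCDHB14: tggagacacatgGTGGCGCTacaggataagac
PCDHB15: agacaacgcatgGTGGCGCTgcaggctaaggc
The sequence GTGGCGCT was found on the gene strand in 13 of 14 PCDHB promoters and in 0.638% of the 35116 promoters in the RefSeq table (1.15% when either strand was searched). It was not found in the PCDHB1 window, and its first letter lay 1 to 83 bases before the start. The shorter core CGCT was found in all 14 and in 54.3% of all promoters (70.01% on either strand), so that match alone says little. The box was read off these promoters after seeing them.

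The promoters whose levels differed most among the libraries or among the genes are given next from 250 bases before to 30 bases after the start, with CpGs in capitals. The sequences are RefSeq's (GRCh38.p14), and the coordinates are the hg19 places found by the CpG match, plus strand.
PCDHB5 (chr5:140514538-140514817): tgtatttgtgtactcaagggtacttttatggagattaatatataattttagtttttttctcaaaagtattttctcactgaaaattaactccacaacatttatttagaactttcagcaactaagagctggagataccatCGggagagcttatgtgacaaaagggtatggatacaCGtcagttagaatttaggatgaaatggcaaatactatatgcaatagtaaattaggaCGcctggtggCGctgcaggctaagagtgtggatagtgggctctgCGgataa
PCDHB8 (chr5:140557121-140557400): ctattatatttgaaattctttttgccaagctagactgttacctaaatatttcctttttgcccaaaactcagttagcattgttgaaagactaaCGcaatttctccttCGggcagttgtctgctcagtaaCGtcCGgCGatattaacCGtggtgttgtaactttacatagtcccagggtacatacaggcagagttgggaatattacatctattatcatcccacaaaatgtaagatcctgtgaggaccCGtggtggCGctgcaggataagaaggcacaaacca
PCDHB13 (chr5:140593241-140593520): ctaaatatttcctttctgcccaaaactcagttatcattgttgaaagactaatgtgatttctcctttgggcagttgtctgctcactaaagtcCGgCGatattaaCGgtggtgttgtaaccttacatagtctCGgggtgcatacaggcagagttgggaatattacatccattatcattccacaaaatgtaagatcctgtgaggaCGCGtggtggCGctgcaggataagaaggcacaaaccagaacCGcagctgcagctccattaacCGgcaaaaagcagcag
PCDHB16 (chr5:140561712-140561991): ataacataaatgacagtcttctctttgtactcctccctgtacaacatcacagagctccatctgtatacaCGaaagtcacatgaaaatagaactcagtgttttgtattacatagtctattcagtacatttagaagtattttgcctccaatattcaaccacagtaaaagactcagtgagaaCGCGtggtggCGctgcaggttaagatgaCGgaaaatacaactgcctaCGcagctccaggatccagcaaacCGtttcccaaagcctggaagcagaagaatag
PCDHB15 (chr5:140624713-140624992): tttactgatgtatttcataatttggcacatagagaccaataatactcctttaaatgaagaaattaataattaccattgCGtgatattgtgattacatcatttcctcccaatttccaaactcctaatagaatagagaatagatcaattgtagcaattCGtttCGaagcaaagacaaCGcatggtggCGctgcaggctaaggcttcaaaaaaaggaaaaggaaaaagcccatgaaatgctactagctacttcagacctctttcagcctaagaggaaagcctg

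Over the whole region the cytosines were close to fully methylated in the primed libraries and near the middle of the scale in the naive ones. The mean level was 53.3% ± 17.7 in KO naive, 43.6% ± 21.0 in WT naive, 89.8% ± 17.3 in KO primed and 90.9% ± 15.6 in WT primed cells (SD over 869 cytosines of 1 library each). The share of cytosines at 90% or above was 0.345% in KO naive (Wilson 95% interval 0.117 to 1.01%) and 2.19% in WT naive (1.40 to 3.39%). It was 71.8% in KO primed (68.7 to 74.7%) and 73.1% in WT primed (70.03 to 75.9%). These and the following intervals cover counting error only. The share of cytosines at 20% or below was 3.91% in KO naive and 14.96% in WT naive, against 2.19% in KO primed and 1.27% in WT primed. Over the autosomes it was 11.4% in KO naive, 13.99% in WT naive, 5.28% in KO primed and 5.70% in WT primed. A cytosine without a methylated read is not listed, so the lowest levels are missing from these shares.

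**Figure D1:**
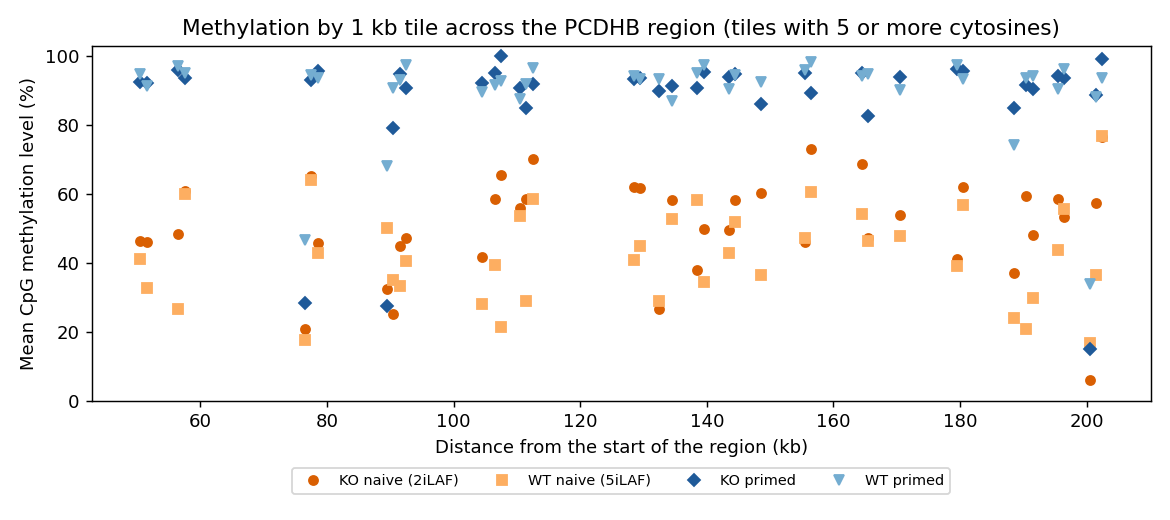
Mean CpG methylation level (%) of each 1 kb tile with at least 5 cytosines, plotted against the distance in kb from the start of the region, for KO naive, WT naive, KO primed and WT primed cells (1 library each). Of the 41 tiles, 37 were at 80% or above in each primed library and none in either naive library.

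The difference between naive and primed cells was larger here than the average over the autosomes. WT naive cells were lower than WT primed cells by 47.3 points here (mean difference -47.3 points), and over the 396398 autosomal cytosines the mean difference was -22.6 points. KO naive cells differed from KO primed cells by -36.4 points here and by -21.9 points over the autosomes. The naive mean was thus 47.98% of the primed mean in WT cells and 59.4% in KO cells in the region, while over the autosomes it was 70.5% in WT and 71.7% in KO cells. The neighbouring sequence differed in the same direction. In the 300 kb before the region, on the side of the PCDHA genes, the naive mean was 48.9% of the primed mean in WT cells and 53.6% in KO cells over 684 cytosines. In the 300 kb after it, on the side of the PCDHG genes, the values were 54.3% and 60.6% over 816 cytosines. The flanks thus also lay below the autosomal share, and the difference between flanks and region was not tested.

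At single cytosines, 97.0% of the 869 had a lower level in WT naive than in WT primed cells, 97.4% had a lower level in KO naive than in KO primed cells, and 94.9% were lower in both. Over the autosomes 80.7% of the cytosines were lower in the naive state in WT cells and 86.1% in KO cells. The shares were 95.9% (WT) and 96.8% (KO) in the 300 kb before the region. In the 300 kb after it they were 92.03% (WT) and 95.5% (KO), so the flanks were close to the region. Methylated and unmethylated reads were compared by two-sided Fisher tests (exact). These, adjusted by Benjamini-Hochberg over all 411226 cytosines, called 611 of 869 (70.3%) lower in WT naive than in WT primed cells at a difference of at least 25 points, where 26.7% of all cytosines were called. In KO cells 534 of 869 (61.4%) were called lower, where 27.4% of all cytosines were. Calls of a higher level in the naive state numbered 2 in WT cells (0.828% of all cytosines were called so) and 0 in KO cells (0.392%). In KO cells the count was also 0 at an unadjusted p under 0.05. The test compares 2 libraries and takes reads as independent molecules. Of the 33680 CpGs of the data set read on both strands, 16605 to 26167 per library, those of intermediate level (20 to 80%), were used to compare the strands. There the strands differed by 3.13 to 4.74 times the binomial variance. Of the 31 such CpGs in the region, 3 were used in KO primed and 1 in WT primed cells. Whether the ratio holds at nearly full methylation was not tested. With reads scaled down by this ratio, 0 of 869 cytosines passed the adjusted test in either genotype, and 183 in WT and 143 in KO cells were lower at an unadjusted p under 0.05. Over the whole data set 1097 of 411226 cytosines in WT and 1133 in KO cells were then called lower. Scaling leaves so few reads at the depth of the members that the adjusted threshold can hardly be reached. The 0 therefore does not tell whether the differences hold.

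By tiles the picture was the same across the region. A tile counted as lower where its mean differed by at least 25 points and at least 80% of its cytosines moved that way, a rule of size without a p. Of 41 tiles with at least 5 cytosines, 38 (92.7%) were lower in WT naive than in WT primed cells, where 37.4% of the 20581 tiles of the data set were. In KO cells 35 (85.4%) were lower in naive than in primed cells, against 34.2% of all tiles. None was higher in either genotype, against 0.51% of all tiles in WT and 0.214% in KO cells. All 35 of the KO tiles were among the 38 of WT cells (92.1% of those). The tile differences of WT and KO cells, with no library in common, correlated at r = 0.635 (Pearson) and rho = 0.531 (Spearman) over 41 tiles. This is a description, since tiles share libraries, capture and read depth.

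Taking both genotypes as pairs, the naive minus primed difference of the region was -41.9 points ± 7.67 (SD, n = 2 pairs). Permuting the states within pairs (exact, two-sided) gave p = 0.5, below which 2 pairs cannot go. The difference was 10.8 points smaller in KO than in WT cells, and with 1 library per group this was not tested.

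Gene by gene, every placed window was high in the primed state and lower in the naive state. The window of a gene ran from 1 kb before to 3 kb after its start, and 12 of the 13 placed genes had at least 5 members in it. PCDHB1, the first gene of the cluster, had none. Over the 8 genes placed by the stricter rule, the window mean was 49.2% ± 7.46 in KO naive, 45.1% ± 3.52 in WT naive, 86.3% ± 5.73 in KO primed and 87.5% ± 4.24 in WT primed cells (SD over genes). All 8, and all 12 with the other placed genes, had a negative naive minus primed difference in both genotypes.

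PCDHB7, like the other beta genes a neuronal surface adhesion protein, was the highest of the 8 in 3 libraries. Its window stood at 61.8% ± 14.6 in KO naive, 43.2% ± 18.5 in WT naive, 91.7% ± 12.1 in KO primed and 91.8% ± 14.2 in WT primed cells (SD over 71 cytosines). The naive libraries therefore differed by 18.6 points at this gene, with KO higher than WT, and the primed libraries by -0.142 points. PCDHB16 showed the opposite order in the naive state. Its levels were 37.6% ± 14.6 in KO naive, 48.2% ± 17.8 in WT naive, 81.9% ± 26.9 in KO primed and 85.3% ± 26.2 in WT primed cells over 29 cytosines. It was the highest of the 8 in WT naive and the lowest in KO naive cells, and the only one of the 12 genes whose KO naive mean was below its WT naive mean.

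PCDHB5 had the largest naive minus primed difference among the 8 in WT cells, at -52.7 points. Its window stood at 41.5% ± 17.4 in KO naive, 37.7% ± 13.2 in WT naive, 82.5% ± 27.2 in KO primed and 90.4% ± 12.9 in WT primed cells over 43 cytosines. It also had the largest difference between the primed libraries, -7.93 points in KO against WT. PCDHB13 had the largest difference in the other direction, 3.34 points, with 91.0% ± 14.6 in KO primed and 87.7% ± 14.4 in WT primed cells. PCDHB13 was at 51.6% ± 17.5 in KO naive and 46.9% ± 18.4 in WT naive cells, over 42 cytosines. PCDHB15, the last gene of the cluster, had the smallest naive minus primed difference in both genotypes, -22.4 points in KO and -30.1 points in WT cells. It was at 53.5% ± 28.9 in KO naive, 48.1% ± 29.1 in WT naive, 75.9% ± 36.4 in KO primed and 78.2% ± 27.7 in WT primed cells over 49 cytosines. Its spread over cytosines was the widest of the 12 genes in all 4 libraries. In the 1 kb tile just after its start 8 cytosines stood at 5.93% in KO naive, 16.8% in WT naive, 14.9% in KO primed and 33.9% in WT primed cells.

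**Figure D2:**
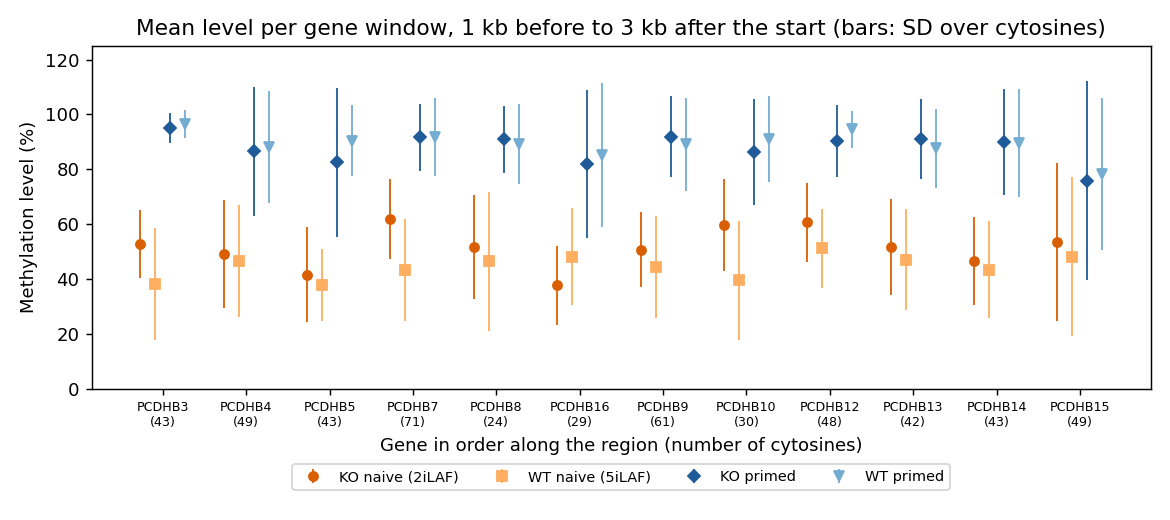
Mean methylation level (%) of the cytosines in the window of each placed gene, 1 kb before to 3 kb after the start, in the order of the genes along the region, for KO naive, WT naive, KO primed and WT primed cells. Bars are the SD over cytosines of 1 library and the number of cytosines stands under each name. PCDHB16 is the gene with KO naive (37.6%) below WT naive (48.2%).

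The other placed genes lay within a narrower range in the primed than in the naive state. PCDHB3 had the largest difference of the 12 genes in WT cells, -58.4 points, with 38.2% ± 20.5 in WT naive and 96.5% ± 4.96 in WT primed cells over 43 cytosines. In KO cells it was at 52.7% ± 12.3 in naive and 95.2% ± 5.45 in primed cells. PCDHB10 had the largest difference between the naive libraries, 20.2 points, with 59.7% ± 16.8 in KO naive and 39.5% ± 21.7 in WT naive cells over 30 cytosines. Coverage there was the lowest of all genes, at means of 23.0 reads per cytosine in KO naive and 15.9 in WT naive cells.

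The other 337 members could be tied to genes only through the RefSeq order, and 3 of them lay between placed windows. The 49 members between PCDHB1 and PCDHB3, where RefSeq puts PCDHB2, stood at 46.3% ± 11.6 in KO naive, 37.9% ± 18.2 in WT naive, 92.4% ± 7.79 in KO primed and 93.5% ± 7.91 in WT primed cells. The 41 members where RefSeq puts PCDHB11 stood at 60.8% ± 15.3 in KO naive, 54.4% ± 17.9 in WT naive, 91.3% ± 8.96 in KO primed and 97.04% ± 4.75 in WT primed cells. The 104 members between PCDHB14 and PCDHB15, the place of the pseudogenes PCDHB18P and PCDHB19P, were at 92.02% ± 8.95 in KO primed and 93.2% ± 11.1 in WT primed cells. The 140 members between PCDHB5 and PCDHB7, the place of PCDHB6 and the pseudogene PCDHB17P, were at 92.8% ± 9.87 in KO primed and 91.9% ± 13.4 in WT primed cells.

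Both of these intervals were higher in KO naive than in WT naive cells. The interval of PCDHB18P and PCDHB19P was at 52.6% ± 15.3 in KO naive and 39.8% ± 22.1 in WT naive cells, and that of PCDHB6 and PCDHB17P at 58.3% ± 16.4 in KO naive and 41.98% ± 24.1 in WT naive cells. The 1 kb tile at chromosome 5, 140615001 to 140616000 had 59.3% ± 10.4 in KO naive, 20.8% ± 7.31 in WT naive, 91.7% ± 8.65 in KO primed and 93.8% ± 6.23 in WT primed cells over 18 cytosines. It had the largest naive minus primed difference of any tile in WT cells, -72.99 points. The tile at 140532001 to 140533000 had 65.5% ± 3.71 in KO naive, 21.4% ± 6.13 in WT naive, 100% in KO primed and 92.7% ± 8.04 in WT primed cells over 6 cytosines. The tile at 140536001 to 140537000 had 58.5% ± 11.6 in KO naive, 29.1% ± 20.8 in WT naive, 85.1% ± 12.7 in KO primed and 91.9% ± 6.57 in WT primed cells over 11 cytosines. In all 3 tiles the primed libraries were high, KO naive was intermediate and WT naive was the lowest. The 3 tiles are those that the rule of size called higher in KO naive than in WT naive cells, so that order of the naive libraries follows from the choice.

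Between the naive libraries as a whole, KO cells were higher than WT cells by 9.74 points in the region, by 3.25 points in the 300 kb before it, by 5.89 points in the 300 kb after it and by 1.67 points over the autosomes. The level was higher in KO naive at 69.3% of the members, and lower at 30.03%. Over the autosomes it was higher at 52.1% of the cytosines and lower at 46.7%. It was higher at 54.7% in the 300 kb before the region and at 62.3% in the 300 kb after it. Over tiles, KO naive was above WT naive in 33 of 41 and below it in 8. By the rule of size 3 tiles (7.32%) were higher in KO naive, the 3 just described, where 2.56% of all tiles were, and 0 were lower, where 1.29% were. Fisher's exact test with Benjamini-Hochberg adjustment called 25 of 869 cytosines (2.88%) higher in KO naive, where 0.911% of all cytosines were, and 2 (0.23%) lower, where 0.527% were. Of the 25, 14 lay in the interval of PCDHB18P and PCDHB19P and 6 in that of PCDHB6 and PCDHB17P. The other 5 lay in the windows of PCDHB9 (3), PCDHB7 (1) and PCDHB15 (1). Both cytosines called lower in KO naive cells lay in promoters, of PCDHB5 and PCDHB16. With reads scaled by the strand ratio none of these calls was left (12 higher and 1 lower at an unadjusted p under 0.05). Over the whole data set 0 cytosines were then called higher and 30 lower in KO naive cells. Median coverage of the members was 34 reads in KO naive and 21 in WT naive cells, against 22 in KO primed and 20 in WT primed cells. The part of this depth difference in the result was not tested.

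The promoters stood apart from the rest of the region. The 31 members from 250 bases before to 50 bases after a start, from 9 genes, were at 21.04% ± 14.7 in KO naive, 29.9% ± 20.3 in WT naive, 38.7% ± 32.4 in KO primed and 52.2% ± 30.6 in WT primed cells. The other 838 members were at 54.5% ± 16.7 in KO naive, 44.1% ± 20.8 in WT naive, 91.7% ± 13.2 in KO primed and 92.3% ± 12.7 in WT primed cells. Mean coverage was 42.9, 20.97, 28.9 and 22.6 reads in the promoter members and 37.2, 23.2, 23.5 and 22.05 reads in the others, in the same order of libraries. Cytosines without a methylated read are not listed and do not enter these means.

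Among the promoters with members, PCDHB8 had the highest levels in the primed state. Its 6 members stood at 26.7% ± 9.44 in KO naive, 28.9% ± 17.4 in WT naive, 89.8% ± 5.16 in KO primed and 93.4% ± 11.7 in WT primed cells. All 6 were called lower in naive than in primed cells in KO and in WT cells by Fisher's exact test with Benjamini-Hochberg adjustment. The promoter of PCDHB13 is its closest relative in sequence, with 243 identical bases of 259 aligned (93.8%), while the next pair of promoters shared 71.4%. PCDHB13 was nonetheless at an intermediate primed level, with 23.2% ± 20.6 in KO naive, 35.8% ± 38.6 in WT naive, 53.9% ± 4.49 in KO primed and 55.1% ± 9.28 in WT primed cells over 3 cytosines. Reads from sequences this alike may be assigned to the wrong copy, and how the authors handled such reads is not given in the sources used here.

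**Figure D3:**
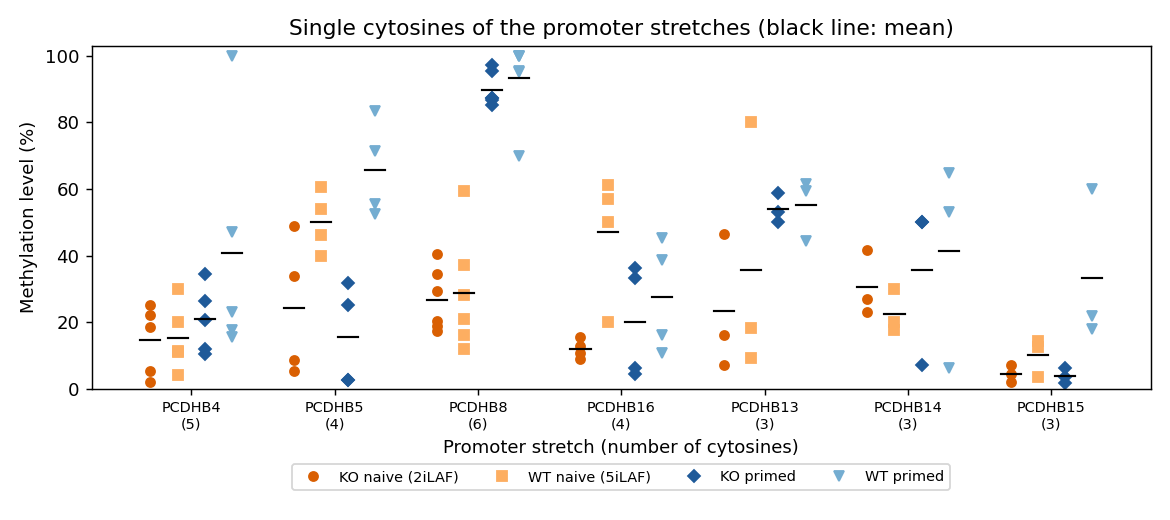
Methylation level (%) of each cytosine in the promoter stretches with at least 3 members, 250 bases before to 50 bases after the start, for KO naive, WT naive, KO primed and WT primed cells. Each point is 1 cytosine in 1 library and the black line is the mean. PCDHB8 is high in both primed libraries (89.8% and 93.4%), and PCDHB5 and PCDHB15 are lower in KO primed than in WT primed cells.

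The remaining promoters with members were mostly below the middle of the scale in the primed state. Several were lower in KO primed than in WT primed cells, while PCDHB7, on 1 cytosine, was higher. Positions count from 1 at the start, with negative numbers before it, and give the C of the CpG on the gene strand. In PCDHB5 the 4 members were at 24.2% ± 20.9 in KO naive, 50.2% ± 9.02 in WT naive, 15.6% ± 15.1 in KO primed and 65.7% ± 14.4 in WT primed cells. At position 24 of PCDHB5 the levels were 5.41% in KO naive, 53.8% in WT naive, 2.70% in KO primed and 71.4% in WT primed cells, on 37, 26, 37 and 14 reads. At position 37 they were 8.57% in KO naive, 46.2% in WT naive, 2.70% in KO primed and 55.6% in WT primed cells, on 35, 26, 37 and 18 reads. Both cytosines after the start were thus low in both KO libraries and intermediate in both WT libraries. Upstream, at position -112, they were 33.9% in KO naive, 40.0% in WT naive, 31.8% in KO primed and 83.3% in WT primed cells, so that WT primed stood apart from the other 3. At position -77 the levels were 49.0% in KO naive, 60.7% in WT naive, 25% in KO primed and 52.4% in WT primed cells.

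In PCDHB15 the 3 promoter members were at 4.48% ± 2.56 in KO naive, 10.1% ± 5.81 in WT naive, 3.89% ± 2.31 in KO primed and 33.2% ± 23.3 in WT primed cells. In PCDHB4 the 5 members were at 14.6% ± 10.3 in KO naive, 15.3% ± 9.96 in WT naive, 20.8% ± 10.01 in KO primed and 40.6% ± 35.5 in WT primed cells. WT primed had the highest mean at both genes and the other 3 libraries lay below it. At PCDHB4 this rested largely on position -35, at 100% of 11 reads in WT primed and 26.3% of 19 in KO primed cells. The other PCDHB4 members differed less, from 15.4% to 47.1% in WT primed and from 10.5% to 34.5% in KO primed cells. In PCDHB16 the 4 members were at 11.96% ± 2.87 in KO naive, 47.1% ± 18.6 in WT naive, 20.1% ± 17.1 in KO primed and 27.7% ± 16.8 in WT primed cells, so that here WT naive was the highest. In PCDHB14 the 3 members were at 30.6% ± 9.81 in KO naive, 22.5% ± 6.56 in WT naive, 35.7% ± 24.7 in KO primed and 41.3% ± 30.9 in WT primed cells. PCDHB9 had 2 members and PCDHB7 1, and PCDHB3, PCDHB10 and PCDHB12 had none. On few reads below the member depth, the promoters of PCDHB3 and PCDHB12 were also high in the primed state. PCDHB3 was at 73.1% of 26 reads in KO primed and 87.5% of 16 in WT primed cells, against 14.5% of 55 in KO naive cells. PCDHB12 was at 85.7% of 7 reads in KO primed and 70.6% of 34 in WT primed cells, against 30.8% of 13 in KO naive cells. PCDHB10 was at 11.1% of 36 reads in KO primed cells.

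Pooling all listed reads of a promoter, whatever the depth of the cytosine, kept the order of the libraries at PCDHB5. The pooled CpGs were not the same in every library. At PCDHB5, 5 CpGs were listed in KO naive, 5 in WT naive, 4 in KO primed and 5 in WT primed cells. At PCDHB14 the numbers were 7, 4, 6 and 3 in the same order. The part of these differing CpGs in the pooled levels was not tested. At PCDHB15 WT primed remained the highest and WT naive the next, while the order of the KO libraries turned round. The order was also kept at PCDHB4, PCDHB8, PCDHB13 and PCDHB16. It changed at PCDHB14, to 13.9% in KO naive, 22.5% in WT naive, 17.3% in KO primed and 42.0% in WT primed cells. At PCDHB13 the pooled primed levels were lower than over the members, at 35.1% in KO primed and 39.6% in WT primed cells. At PCDHB5, 50 of 228 reads were methylated in KO naive (21.9%, Wilson 95% interval 17.05 to 27.7%), 66 of 138 in WT naive (47.8%, 39.7 to 56.1%), 15 of 120 in KO primed (12.5%, 7.72 to 19.6%) and 51 of 88 in WT primed cells (57.95%, 47.5 to 67.7%). At PCDHB15, 8 of 216 were methylated in KO naive (3.70%, 1.89 to 7.14%), 11 of 129 in WT naive (8.53%, 4.83 to 14.6%), 16 of 256 in KO primed (6.25%, 3.88 to 9.91%) and 55 of 241 in WT primed cells (22.8%, 17.97 to 28.5%). At PCDHB4 the primed intervals overlapped, at 25.3% in KO primed (20.3 to 31.1%) and 31.25% in WT primed cells (24.6 to 38.8%). Reads of neighbouring cytosines can come from the same molecule, so all these intervals are too narrow.

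The CpG inside the capitalised box was listed in all 4 libraries at 1 promoter, PCDHB8, at 11.8% of 34 reads in KO naive (Wilson 95% interval 4.67 to 26.6%), 12.5% of 16 in WT naive (3.50 to 36.02%), 50% of 12 in KO primed (25.4 to 74.6%) and 44.4% of 9 in WT primed cells (18.9 to 73.3%). At PCDHB15 it was listed at 3.45% of 29 reads in WT naive, 12.5% of 56 in KO primed and 18.6% of 43 in WT primed cells. KO primed was thus below WT primed at PCDHB15, and above it at PCDHB4, PCDHB8 and PCDHB13. At all of these genes the Wilson 95% intervals of the primed libraries overlapped. PCDHB4 was at 10% of 20 reads in WT naive, 34.8% of 23 in KO primed (18.8 to 55.1%) and 18.75% of 16 in WT primed cells (6.59 to 43.01%). PCDHB13 was at 5.56% of 18 reads in KO naive, 23.1% of 13 in KO primed (8.18 to 50.3%) and 16.7% of 12 in WT primed cells (4.70 to 44.8%). PCDHB12 had at most 7 reads in a library. At PCDHB5 it was listed at 39.3% of 28 reads in WT naive and 29.4% of 17 in WT primed cells and in neither KO library. At PCDHB16 it was listed at 31.25% of 16 reads in WT naive and 10% of 30 in WT primed cells, and in neither KO library. At PCDHB14 it was listed at 3.85% of 26 reads in KO naive and 5.88% of 17 in KO primed cells, and in neither WT library. An unlisted cytosine had either no read or no methylated read.

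Between the primed libraries, the region as a whole hardly differed, at -1.10 points in KO against WT, with 1.04 points over the autosomes. With at least 20 reads per cytosine the sign turned, at 0.456 points over 248 cytosines. By Fisher's exact test, with Benjamini-Hochberg adjustment, 5 of 869 cytosines (0.575%) were lower in KO primed, where 0.323% of all cytosines were called so, and 5 (0.575%) were higher, where 0.603% were. Of the 5 lower ones, 4 lay in promoters (2 in PCDHB5, 1 in PCDHB4 and 1 in PCDHB15) and the fifth in the window of PCDHB5. None of the 5 higher ones lay in a promoter, and 3 of them were in the window of PCDHB9. By the rule of size 1 of 41 tiles (2.44%) was lower in KO primed, where 0.69% of all tiles were, and 0 were higher, where 1.31% were. That tile, at 140514001 to 140515000, holds the PCDHB5 promoter and was at 32.6% ± 32.3 in KO naive, 50.1% ± 16.4 in WT naive, 27.6% ± 37.7 in KO primed and 68.0% ± 20.9 in WT primed cells over 6 cytosines. With reads scaled by the strand ratio 0 of these 10 calls were left, and 0 of 869 differed in either direction at an unadjusted p under 0.05. Over the whole data set 21 cytosines were then called lower and 0 higher in KO primed cells.

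Along the genes the mean level was lower in the promoter than further into the exon in every library. Averaged over gene means, members 1500 to 1999 bases after the start stood at 50.5% ± 8.09 in KO naive, 40.2% ± 12.3 in WT naive, 93.4% ± 3.85 in KO primed and 93.7% ± 3.91 in WT primed cells (SD over 11 genes). Members of the promoter stretches stood at 23.7% ± 14.2 in KO naive, 30.6% ± 15.1 in WT naive, 38.5% ± 29.8 in KO primed and 46.8% ± 21.5 in WT primed cells (SD over 9 genes). Few members lay between, with 35 cytosines of 5 genes from 50 to 999 bases after the start. In the primed state no gene mean from 1000 bases onwards was below 76.6% in KO or 78.6% in WT cells.

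**Figure D4:**
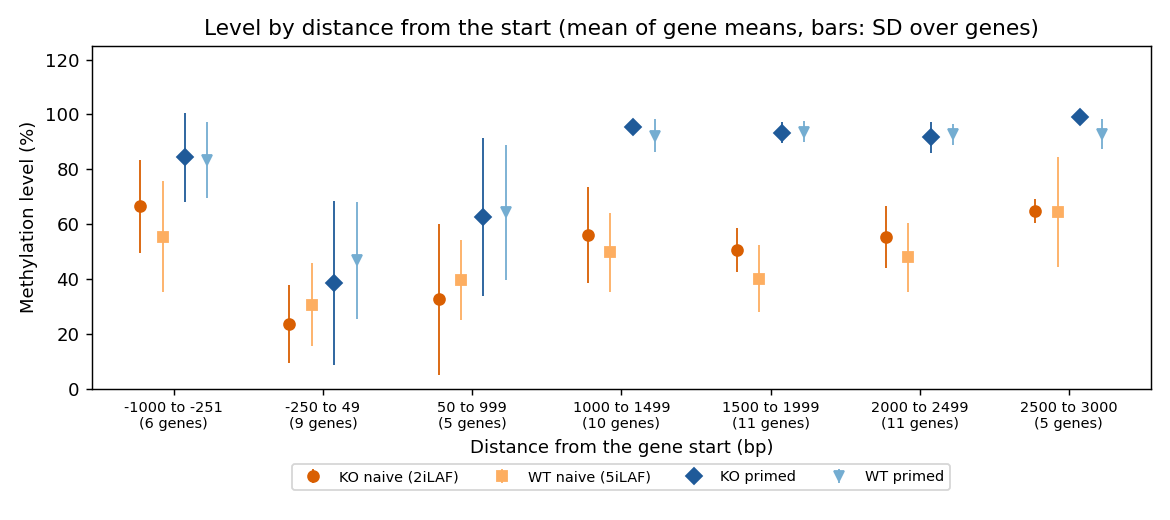
Methylation level (%) by distance from the gene start (bp) over the placed genes, for KO naive, WT naive, KO primed and WT primed cells. Points are means of gene means and bars the SD over genes. From 1000 bp onwards the primed libraries are above 90% and the naive libraries between 40.2% and 64.8%.

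Within the exon the naive libraries varied more from gene to gene than the primed ones. The 10 genes with at least 5 members both from 1500 to 1999 and from 2000 to 3000 bases after the start were compared across these parts. In WT naive cells PCDHB15 was at 36.7% in the first and 76.8% in the second part, and PCDHB3 at 25.9% and 59.9%. PCDHB16 ran the other way, with 57.6% in the first and 34.5% in the second part, as did PCDHB13, with 56.4% and 35.3%. The second part was higher in 7 of 10 genes in KO naive and in 6 of 10 in WT naive cells. In the primed state the SD over genes of the first part was 2.75 points in KO and 4.07 points in WT cells, against 7.73 points in KO naive and 12.8 points in WT naive cells.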

How the data were processed

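Genomic DNA of 4 H9 samples was captured with a methylation capture kit and bisulfite sequenced, with a conversion of 99% from spiked-in phage DNA, per the labels' protocols. Coordinates are those of hg19 (the GRCh37 build), per the submitters' processing notes. Aligner, caller and duplicate handling: not given in the sources used here. Per the file headers, the deposited coverages are raw read counts per cytosine and strand, and the deposited level is a fraction, methylated over context coverage. No listed cytosine had 0 methylated reads, so low levels are raised by selection. In the region the summed reads were 59568 in KO naive, 36978 in WT naive, 34609 in KO primed and 32227 in WT primed cells, with members at 10 to 77 reads. Of the members 94.9% lay on the minus strand, and 31 CpGs were read on both strands.

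Levels were recomputed from the counts as percent and averaged with equal weight per cytosine, with chromosome Y left out. Fisher's exact tests, Benjamini-Hochberg adjustment (threshold 0.05 and 25 points) and the rule of size for tiles ran on the whole table in Python 3.11.15 with numpy 2.4.6, pandas 2.3.3, scipy 1.17.1 and numba 0.67.0. The Fisher tests and the adjustment, but not the rule of size, were tested on simulated cytosines. The simulated reads were independent, so the disagreement between strands was not part of that test. Gene starts came from matching CpG positions, since coordinates of another build were not used. All placed PCDHB genes are named, in full those with extreme levels or differences. The members and lists were chosen with earlier results of these data known. Scaling by the strand ratio, placing with 3 CpGs and leaving out promoters were added after seeing the data, as were the box and the parts of the exon.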

Additional observations from a re-analysis of the deposited data

Results flagged for a closer look

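The difference between KO and WT cells had opposite signs in the primed and the naive state. The mean level of the region differed by -1.10 points in KO primed against WT primed cells and by 9.74 points in KO naive against WT naive cells. With at least 20 reads per cytosine the primed difference was 0.456 points and the naive one 12.1 points, so the signs were then the same. Naive minus primed differences had opposite signs in KO and WT cells at 3 of the 7 promoters with at least 3 members. At the PCDHB5 promoter the difference was 8.68 points in KO and -15.5 points in WT cells over 4 cytosines. At the PCDHB16 promoter it was -8.11 points in KO and 19.4 points in WT cells over 4 cytosines. At the PCDHB15 promoter it was 0.588 points in KO and -23.1 points in WT cells over 3 cytosines. Over all listed reads of the PCDHB15 promoter, 3.70% were methylated in KO naive and 6.25% in KO primed cells, and 8.53% in WT naive and 22.8% in WT primed cells, so both genotypes were then lower in the naive state. These reads did not come from the same CpGs in every library. PCDHB7, with 1 promoter cytosine, differed by -25.2 points in KO and 11.6 points in WT cells. With 1 library per group none of these differences was tested.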

How the results depend on the processing

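No paired analysis was possible because the labels give no replicate numbers and each group held 1 library, so that only the pairing of states within genotypes (exact p = 0.5) could be made. No library could be left out. The naive minus primed difference of the region kept its sign under every setting tried, from -51.8 to -46.8 points in WT and from -40.1 to -36.05 points in KO cells. It was -51.8 (WT) and -40.1 points (KO) with at least 20 reads per cytosine, and -48.2 and -37.1 points without promoter stretches. In KO cells it was -38.1 points with at least 5 reads, -37.9 with merged strands, -37.5 weighted by reads and -38.9 over each library's own cytosines. KO minus WT in the primed state reversed to 0.456 points with at least 20 reads and was -1.72 points over own cytosines. In the naive state KO minus WT was 8.57 points with at least 5 reads, 12.1 with at least 20, 8.30 with merged strands and 6.66 over own cytosines. The causes of these shifts were not tested.

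With at least 20 reads the region kept 248 cytosines and 18 tiles. Lower calls in naive cells were then 218 (WT) and 201 (KO) cytosines and 17 and 17 tiles, with 0 higher in WT. For KO against WT, 2 primed and 0 naive cytosines and 0 primed tiles were then lower. With 10 reads drawn per cytosine, 120 (WT) and 33 (KO) were lower in naive cells and 0 higher in WT, and the counts between genotypes were all 0. With reads scaled by the strand ratio every count of cytosines of the region was 0, at depths where the adjusted threshold can hardly be reached. For the other settings the share over the whole data set is not given here. At 50 points, 218 were lower in KO naive than in KO primed, 1 was higher in WT naive than in WT primed, 3 were higher in KO primed, and 1 was lower and 10 higher in KO naive than in WT naive cells. With at least 5 reads, 3 were lower and 3 higher in KO primed than in WT primed cells, and 5 tiles were higher in KO naive than in WT naive cells. With merged strands, 1 was higher in WT naive than in WT primed cells and 6 were lower in KO naive than in WT naive cells. With 3 cytosines per tile, 2 tiles were lower in KO primed and 1 in KO naive than in the WT library.

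Averaged over the 7 genes with at least 3 promoter members, the promoter stretch alone differed by -21.03 points (WT) and -14.9 points (KO) between naive and primed, by -16.7 points between KO and WT in the primed state, and, reversed in sign, by -10.6 points in the naive state, and the cause was not tested. With PCDHB7 (1 cytosine) as well, over 8 genes, these values were -16.95, -16.1, -9.09 and, again reversed, -8.28 points. Without PCDHB8, over 6 genes, they were -13.8, -6.82, -18.9 and, reversed, -11.98 points. Both were added after seeing the data. Over the windows of all 12 placed genes with members the values were -44.8 and -36.5 points between naive and primed, and 6.94 points between the naive libraries. Filling in unlisted cytosines at 0 gave 889 cytosines and no change of sign. Depth and the disagreement between strands both limit single cytosines, as the counts with 10 reads drawn and with scaled reads show.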
